A study of Drosophila melanogaster with 6 samples.

Results

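The nuclear-encoded subunits of the oxidative phosphorylation machinery were described in fly heads as a set of 36 genes, out of 17545 genes in the count tables. The members were given by their locus tags under a rule that uses no measured value: 8 subunits of complex I, 4 of complex II, 4 of complex III, cytochrome c, 8 of complex IV and 11 of ATP synthase. RNA was taken from the heads of 5-day-old female Drosophila melanogaster of 2 groups. HSD-F1 flies had mothers kept from egg to adulthood on a high-sugar diet with 20% sucrose and were, per the study, raised on normal food themselves. ND flies had mothers kept over the same period on normal food with 10% sucrose. The labels give the genotype of both groups as W+VDRC, whereas the study names Canton-S as its wild type, so the strain is given here only as labelled. There were 3 biological replicates a group, each a pool of 15 heads. Heads hold neurons, photoreceptors, glia, muscle and fat body, so in these bulk libraries fewer cells of a type and less RNA per cell cannot be told apart.

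Oxidative phosphorylation takes place in the inner mitochondrial membrane. Complexes I and II pass electrons from NADH and succinate to ubiquinone, complex III hands them to cytochrome c, and complex IV passes them to oxygen. Complexes I, III and IV pump protons as they do so, and ATP synthase uses the return flow of protons to make ATP. Neurons and muscle depend heavily on this pathway. A few core subunits are encoded by the mitochondrial genome, and the others are encoded in the nucleus, made in the cytosol and imported. All 36 genes described here are nuclear. The subunits encoded by the mitochondrial genome were not analysed here.

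The comparison asks whether heads of HSD-F1 and ND flies differ in the mRNA of these subunits. In the study's scheme, flies raised on the high-sugar diet were mated to produce HSD-F1. The diets of mother and father can therefore not be told apart here. The 36 genes were slightly higher on the whole in HSD-F1 heads, by amounts that were small beside the differences between libraries of 1 group. Of the 36 genes, 33 had a log2 fold change above 0 in HSD-F1 over ND heads, against 49.4% of the 12048 genes tested. The median log2 fold change was 0.13 over the members and -0.00 over all genes tested. The members lay between -0.13 (ND-49) and 0.40 (COX5A), or from 0.913 to 1.32 times the ND level. By edgeR's quasi-likelihood test 4 members passed an unadjusted p of 0.05 and were higher in HSD-F1 heads, namely ND-20, SdhC, COX5A and COX6B, where 2.91% of all genes tested were higher by the same rule. None was lower by that rule (0 of 36), against 2.16% of all genes. When a 1.5-fold change was required as well, 0 members were called, against 1.81% of all genes. After Benjamini-Hochberg adjustment over all genes tested by edgeR, 0 members were called, against 0.0664% of all genes, and the smallest adjusted p of a member was 0.911. DESeq2 and limma-voom also called 0 members after adjustment, and 5 members each at an unadjusted p under 0.05. At that threshold DESeq2 called 3.98% and limma-voom 5.10% of all genes tested, in either direction.

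The size of a change that these libraries would still allow was read from the 95% intervals, set against a 1.5-fold change. The intervals of the members come from the same 6 libraries and are not independent. The 95% interval of the log2 fold change lay within a 1.5-fold change in either direction for 31 of the 36 genes. For 5 genes (COX5A, Cyt-c-p, ATPsyngamma, cype and COX6B) its upper end reached past 1.5-fold, or 0.58 on the log2 scale, and for 0 genes did its lower end pass 1.5-fold lower. The widest reach upwards was 0.72 for COX5A, and the widest downwards was -0.43 for ATPsyndelta.

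**Figure D1:**
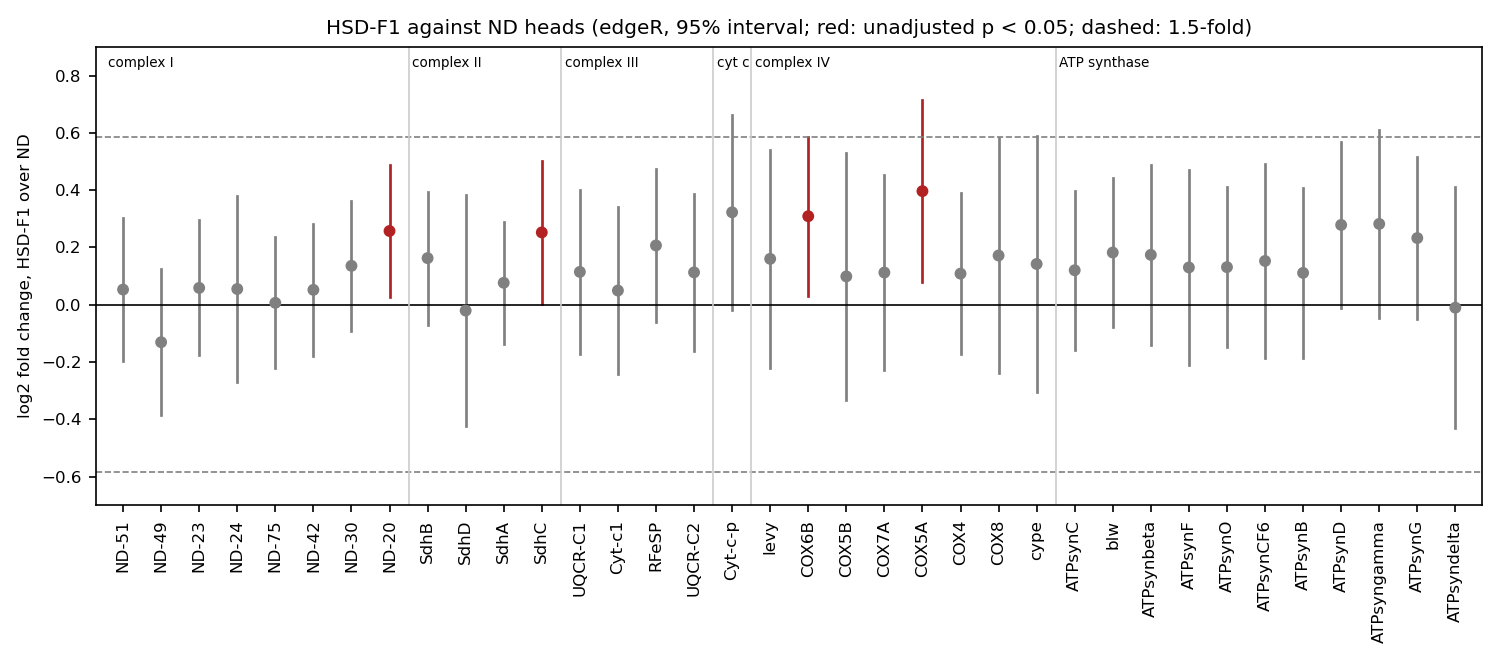
Log2 fold change of each of the 36 genes in HSD-F1 over ND heads (points) with its 95% interval (bars), by complex, with red for an unadjusted p-value under 0.05 in edgeR's test and dashed lines at a 1.5-fold change. All but 3 points lie above 0, the 4 red genes are ND-20, SdhC, COX6B and COX5A, and 31 of the 36 intervals stay between the dashed lines.

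The small shift towards higher values rested on the libraries numbered 3. Each gene's log2 CPM, where CPM is the gene's count scaled to a common TMM-adjusted library total, was set against its mean over the 6 libraries. The median of this deviation over the 36 genes was -0.06, 0.05 and 0.22 in HSD-F1 replicates 1, 2 and 3, and 0.05, -0.02 and -0.25 in ND replicates 1, 2 and 3. HSD-F1 replicate 3 thus stood highest and ND replicate 3 lowest, and the other 4 libraries lay between them without a split by group. ND replicate 3 was the lowest of the 6 libraries for 29 of the 36 genes and lay below the mean of the other 5 for 36 of 36. HSD-F1 replicate 3 was the highest for 25 genes and lay above the mean of the other 5 for 35. Without HSD-F1 replicate 3 the median log2 fold change of the members was 0.04, and 25 of the 36 genes were higher in HSD-F1 heads. Without ND replicate 3 the median was also 0.04, and 30 of the 36 were higher. In each case 0 members had an unadjusted p under 0.05 in edgeR's test. Of all genes tested, 5.03% passed without HSD-F1 replicate 3 and 3.82% without ND replicate 3, in either direction. When replicate 3 was dropped from both groups, a choice made once the values were known, the median was -0.03 and 14 of the 36 genes were higher in HSD-F1 heads. When replicate 1 was dropped from both instead, likewise chosen after seeing the data, it was 0.25 and 36 of 36 were higher, 8 of them with an unadjusted p under 0.05. By that threshold 4.23% of all genes tested in the same fit passed, in either direction.

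**Figure D2:**
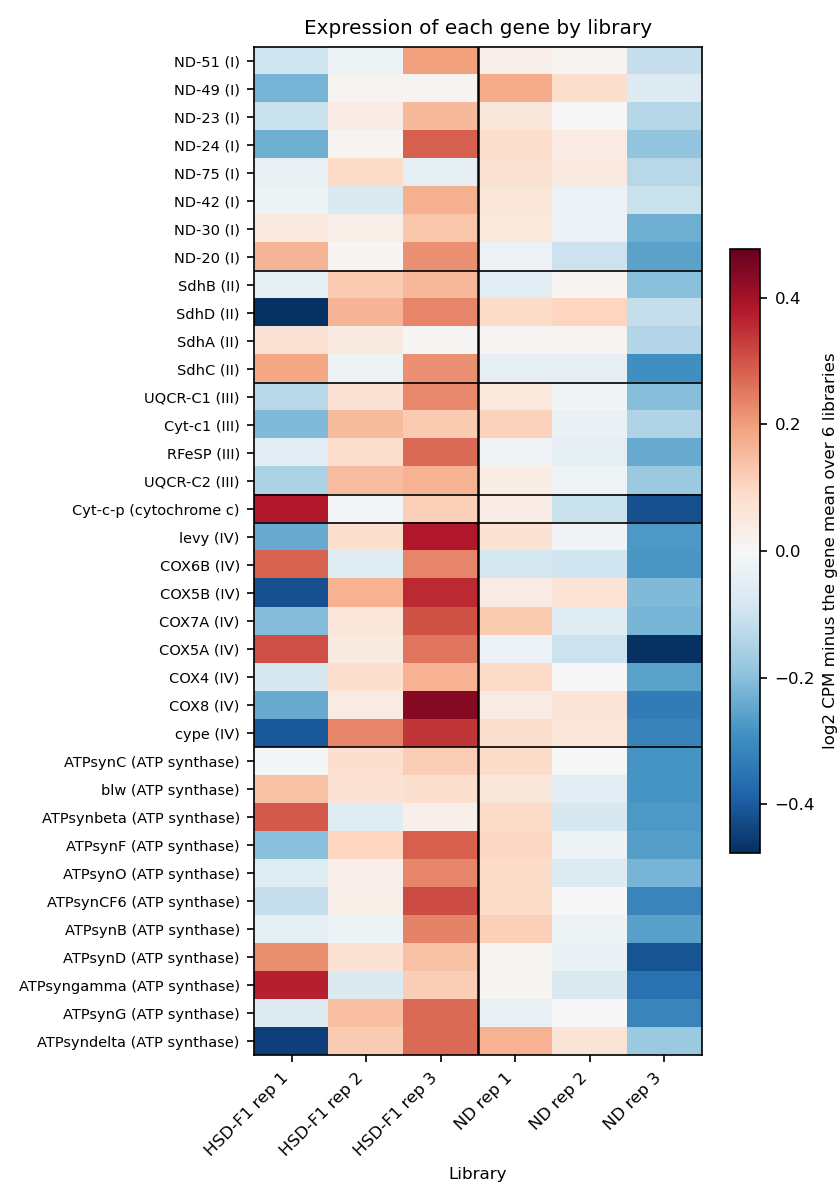
Heat map of the 36 genes (rows, grouped by complex and ordered by level within it) in the 6 libraries (columns, HSD-F1 left of ND), with color for log2 CPM minus the mean of the gene over the 6 libraries. ND replicate 3 is below the mean of the other 5 libraries in 36 of 36 genes, HSD-F1 replicate 3 is above it in 35, and HSD-F1 replicate 1 holds both deep blue and deep red cells.

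ND replicate 3 stood apart in some other values too. The members took 1.60%, 1.63% and 1.73% of all counts in HSD-F1 replicates 1, 2 and 3, and 1.63%, 1.59% and 1.37% in ND replicates 1, 2 and 3, with ND replicate 3 the lowest. Its summed level of 12 muscle markers was the lowest. The sums were 8309, 8703 and 8284 CPM over HSD-F1 libraries and 8962, 8527 and 6794 CPM over ND libraries. The single markers were split. Mhc and sls were lowest in HSD-F1 replicate 3, Mlc1, up and wupA in HSD-F1 replicate 1, and fln in HSD-F1 replicate 2. The others were lowest in ND replicate 3. In the edgeR test 0 of the 12 genes had an unadjusted p under 0.05. The ovary and egg markers, 14 of which were tested out of 16, had their highest sum in ND replicate 3. The summed level was 12.2, 12.7 and 29.8 CPM over HSD-F1 libraries and 11.5, 10.3 and 117 CPM over ND libraries. All 6 fat body markers had a log2 fold change below 0, with a median of -0.13. Of these, 1 had an unadjusted p under 0.05 in edgeR's test, where 2.16% of all genes tested were lower by that rule. The summed level of the fat body markers was 82192, 65554 and 64072 CPM over HSD-F1 libraries and 80338, 65192 and 74307 CPM over ND libraries. Markers of neurons, photoreceptors and glia were all detected, as the head label implies. The part of muscle, egg and fat body RNA in the fold changes was not tested. HSD-F1 replicate 1 had the fewest counts, 20266352, and the other libraries had between 25256945 and 26190694.

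Among the 36 members the level per length differed by complex. Levels of different genes are compared as CPM per kilobase of exon, averaged over the 6 libraries. The median member of complex I stood at 122 CPM per kb and that of complex II at 138, whereas the median was 306 in complex III, 447 in complex IV and 464 in ATP synthase, and cytochrome c stood at 504. All 36 genes were among the 1000 genes with the highest level per kb, between rank 36 (ATPsynC) and rank 808 (ND-20). Within a complex the subunits differed by 2.57-fold in complex I, by 1.55-fold in complex II, by 1.70-fold in complex III, by 3.46-fold in complex IV and by 14.1-fold in ATP synthase. This last ratio rests on ATPsyndelta, whose exons cover 3817 bases in the count tables against a median of 950 for the complex, so that its level per kb depends on which exons are used. Among the members, the median of complex IV stood above that of complex I in every library. Further subunits of these complexes, which are not members, were left out, so these levels describe the members and not the whole complexes. The median exonic length was 1463 bases for the complex I members and 713 for those of complex IV. The part of gene length in these levels was not tested. By median level per kb, the HSD-F1 libraries had 114, 126 and 137 CPM per kb for complex I and 373, 457 and 537 for complex IV, and the ND libraries had 128, 125 and 109 for complex I and 455, 418 and 349 for complex IV.

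**Figure D3:**
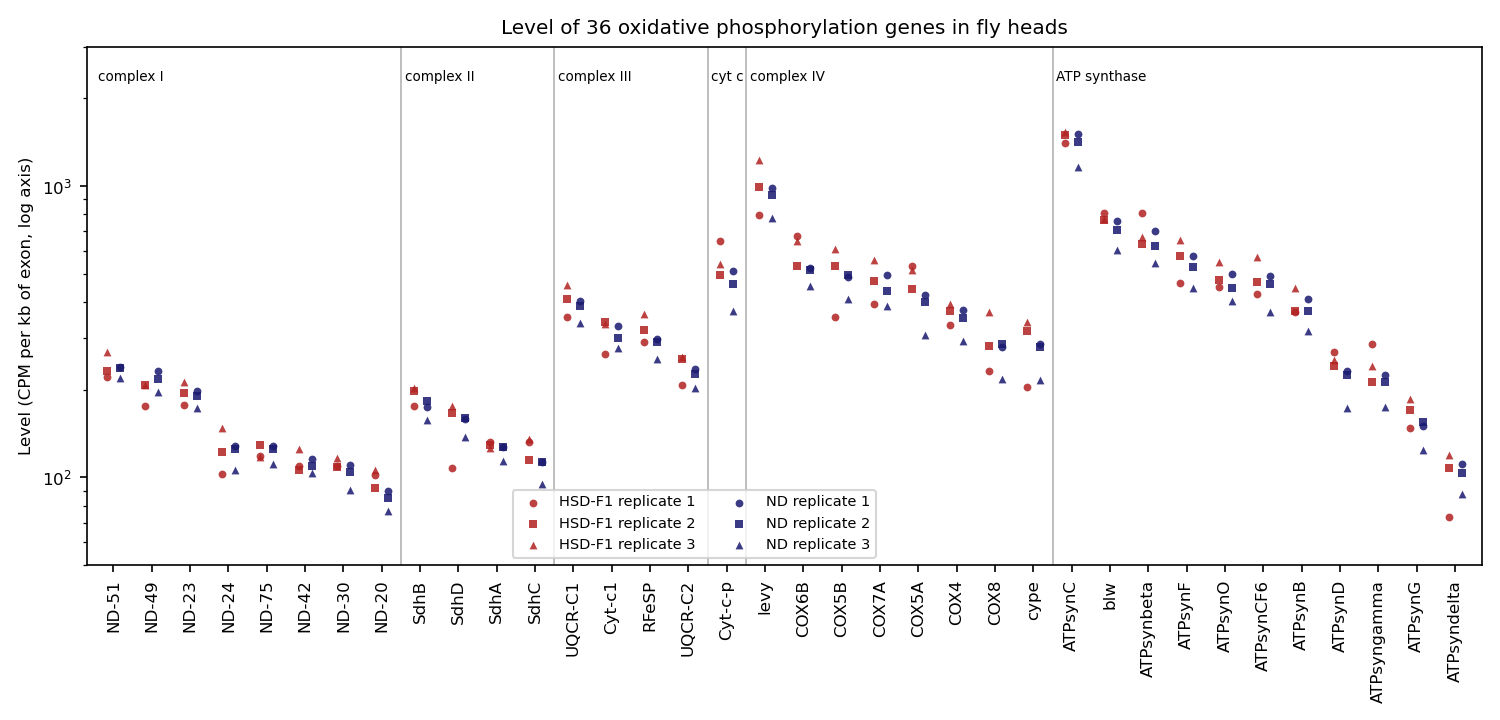
Level of each of the 36 genes in CPM per kb of exon (log axis), by complex, with HSD-F1 libraries in red left of ND libraries in dark blue and a marker shape for each replicate. ATPsynC is the highest gene at a mean of 1419 and ND-20 the lowest at 92.0, and for all but 6 genes the red and blue points overlap.

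Complex I, the NADH dehydrogenase, had 7 of its 8 members above 0 and 1 below, with a median log2 fold change of 0.05. The values of a gene are given in CPM in the order of replicates 1, 2 and 3 of each group. ND-20 (Dmel_CG9172), the subunit that carries the last iron-sulfur cluster before ubiquinone, maps to chromosome X, 15985473 to 15986808, minus strand of Release 6. It had 137, 123 and 142 CPM in HSD-F1 heads, against 119.8, 114 and 102 CPM in ND heads. Every HSD-F1 library was above every ND library. The means were 134 ± 9.86 CPM in HSD-F1 heads and 112 ± 8.93 CPM in ND heads (SD, n = 3 each), and the log2 fold change was 0.26 (standard error 0.10). In edgeR's test its unadjusted p was 0.0321 and its adjusted p 0.911, while the exact permutation test, two-sided over 20 assignments of the libraries, gave p = 0.1, its smallest possible value. ND-51 (Dmel_CG9140), which binds NADH and the flavin, was the most abundant member of the complex at 237 CPM per kb. It had 351, 369 and 429 CPM in HSD-F1 heads, against 382, 378 and 348 CPM in ND heads, with the groups overlapping and HSD-F1 replicate 3 standing alone at the top. ND-30 (Dmel_CG12079), a core subunit of the arm that reduces ubiquinone, had 107, 106 and 114 CPM in HSD-F1 heads, against 107, 102 and 88.2 CPM in ND heads. Here ND replicate 3 was the low library, and the groups overlapped because HSD-F1 replicates 1 and 2 were below ND replicate 1. ND-49 (Dmel_CG1970), which helps to form the ubiquinone site, was the member with the lowest log2 fold change, -0.13 (standard error 0.11). It had 281, 331 and 331 CPM in HSD-F1 heads, against 371, 348 and 314 CPM in ND heads, and HSD-F1 replicate 1 was its lowest library. ND-75 (Dmel_CG2286), the largest subunit of the NADH-oxidizing module, had 313, 341 and 310.3 CPM in HSD-F1 heads, against 337, 331 and 292 CPM in ND heads. Its log2 fold change of 0.01 had a 95% interval of -0.22 to 0.24, which leaves out a change of 1.5-fold in either direction. The remaining members, the iron-sulfur subunits ND-24 and ND-23 and the accessory subunit ND-42, had log2 fold changes of 0.05 to 0.06 and overlapped between the groups.

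Complex II, succinate dehydrogenase, is also an enzyme of the TCA cycle and has no subunit encoded in the mitochondrial genome. It had 3 of 4 members above 0 and 1 below, with a median log2 fold change of 0.12 and 1 member with an unadjusted p under 0.05. SdhC (Dmel_CG6666), an anchor near the ubiquinone site, maps to chromosome 3R, 11208887 to 11209849, minus strand. It had 120.0, 104 and 123 CPM in HSD-F1 heads, against 103, 103 and 86.2 CPM in ND heads, and the groups did not overlap, by a narrow gap between HSD-F1 replicate 2 and both ND replicates 1 and 2. Its log2 fold change was 0.25, standard error 0.11 (unadjusted p = 0.0477 and adjusted p = 0.911 in edgeR's test, and p = 0.1 in the exact permutation test). With DESeq2, with RLE normalization and with a replicate block, the unadjusted p of SdhC was 0.0527, 0.0523 and 0.0573, at log2 fold changes of 0.25, 0.25 and 0.25. SdhD (Dmel_CG10219), the other anchor, had 96.0, 149 and 157 CPM in HSD-F1 heads, against 142, 143 and 123 CPM in ND heads. HSD-F1 replicate 1 was far below the other 5 libraries, which lay between 123 and 157 CPM, and the log2 fold change was -0.02 (standard error 0.18). SdhB (Dmel_CG3283), the iron-sulfur subunit, was the most abundant member at 182 CPM per kb. It had 215, 241 and 247 CPM in HSD-F1 heads, against 213, 222 and 192 CPM in ND heads. The groups overlapped because HSD-F1 replicate 1 was below ND replicate 2, and the log2 fold change was 0.16. SdhA (Dmel_CG17246), the flavoprotein that oxidizes succinate, had 363, 357 and 347 CPM in HSD-F1 heads, against 349, 349 and 314 CPM in ND heads. ND replicate 3 was below the other 5 libraries, which lay between 347 and 363 CPM.

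Complex III, the cytochrome bc1 complex, had 4 of 4 members above 0 and 0 with an unadjusted p under 0.05, with a median log2 fold change of 0.11. UQCR-C1 (Dmel_CG3731), a core protein on the matrix side, was the most abundant at 392 CPM per kb. It had 582, 668 and 748 CPM in HSD-F1 heads, against 659.6, 632 and 554 CPM in ND heads, and HSD-F1 replicate 1 was below both ND replicates 1 and 2. The SD within HSD-F1 exceeded the difference of the means, 666 ± 82.8 CPM in HSD-F1 heads and 615 ± 55.0 CPM in ND heads (SD, n = 3 each). UQCR-C2 (Dmel_CG4169), the other core protein, was the least abundant at 231 CPM per kb and had 349.8, 429 and 435 CPM in HSD-F1 heads, against 398, 382 and 343 CPM in ND heads. RFeSP (Dmel_CG7361), the Rieske iron-sulfur protein that takes electrons from ubiquinol, had the largest log2 fold change of the complex, 0.21 (standard error 0.12). It had 325, 357 and 406 CPM in HSD-F1 heads, against 333, 326 and 285 CPM in ND heads, so that HSD-F1 replicate 1 fell among the ND libraries. Cyt-c1 (Dmel_CG4769), which passes electrons on to cytochrome c, had 405, 519.8 and 511 CPM in HSD-F1 heads, against 505, 459 and 423 CPM in ND heads, and its log2 fold change was 0.05. Cyt-c-p (Dmel_CG17903), the cytochrome c of somatic tissues that carries electrons between complexes III and IV, maps to chromosome 2L, 16719932 to 16722644, plus strand. It had 441, 338 and 366 CPM in HSD-F1 heads, against 347, 315 and 254 CPM in ND heads. HSD-F1 replicate 1 was its highest library and ND replicate 3 its lowest, and HSD-F1 replicate 2 was below ND replicate 1. The log2 fold change of Cyt-c-p, 0.32 (standard error 0.15), missed the threshold in edgeR (unadjusted p = 0.0600, adjusted p = 0.911).

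Complex IV, cytochrome c oxidase, had 8 of 8 members above 0 with a median log2 fold change of 0.15, and 2 of them had an unadjusted p under 0.05. COX5A (Dmel_CG14724), a subunit on the matrix side, maps to chromosome 3R, 11819359 to 11820299, plus strand. It had 425, 353 and 409 CPM in HSD-F1 heads, against 336, 319 and 246 CPM in ND heads. Every HSD-F1 library was above every ND library, and ND replicate 3 lay well below the other 5. The means were 396 ± 37.9 CPM in HSD-F1 heads and 300.5 ± 47.8 CPM in ND heads (SD, n = 3 each), and the log2 fold change of 0.40, standard error 0.14, was the largest of the 36 (unadjusted p = 0.0206 and adjusted p = 0.911 in edgeR's test, and p = 0.1 in the exact permutation test). COX6B (Dmel_CG14235), a subunit on the side of the intermembrane space, maps to chromosome X, 19740537 to 19744335, minus strand. It had 530.2, 418 and 512 CPM in HSD-F1 heads, against 411, 408 and 359.5 CPM in ND heads, with no overlap of the groups but HSD-F1 replicate 2 close to ND replicates 1 and 2. Its log2 fold change was 0.31, standard error 0.12 (unadjusted p = 0.0331 and adjusted p = 0.911 in edgeR's test, and p = 0.1 in the exact permutation test). Of its exonic bases, 9.38% are shared with CG18809 on the same strand, which had 7045 counts over the 6 libraries against 65015 for COX6B, so its counts depend on how shared reads were assigned. levy (Dmel_CG17280), the fly COX6A, was the most abundant member at 951 CPM per kb and had 472, 587 and 726 CPM in HSD-F1 heads, against 585, 552 and 461 CPM in ND heads. In contrast to COX5A and COX6B, HSD-F1 replicate 1 was the lowest library of its group. COX5B (Dmel_CG11015), a zinc-binding subunit on the matrix side, had 258, 387 and 442 CPM in HSD-F1 heads, against 355, 362 and 299 CPM in ND heads. cype (Dmel_CG14028), the fly COX6C and the least abundant member at 275 CPM per kb, had 107, 166 and 179 CPM in HSD-F1 heads, against 149.5, 147 and 113 CPM in ND heads. In both genes HSD-F1 replicate 1 was the lowest of the 6 libraries. COX4, COX7A and COX8 had log2 fold changes of 0.11, 0.11 and 0.17, and their groups overlapped.

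ATP synthase had 10 of its 11 members above 0 and 1 below, with a median log2 fold change of 0.15 and 0 members with an unadjusted p under 0.05. ATPsynC (Dmel_CG1746), whose product forms the ring that turns in the membrane, was the most abundant of the 36 genes at 1419 CPM per kb. It maps to chromosome 3R, 31216145 to 31219630, minus strand. It had 2786, 2958 and 3032 CPM in HSD-F1 heads, against 2976, 2796 and 2303 CPM in ND heads, and ND replicate 3 stood apart from the other 5. blw (Dmel_CG3612), the alpha subunit of the catalytic head, had 1813, 1726 and 1737 CPM in HSD-F1 heads, against 1709, 1587 and 1354 CPM in ND heads. Every HSD-F1 library was above every ND library by a small margin, yet the log2 fold change of 0.18 (standard error 0.11) had an unadjusted p of 0.147 in edgeR's test. ATPsynD (Dmel_CG6030), subunit d of the stalk, had 255, 229 and 241 CPM in HSD-F1 heads, against 220.1, 213 and 164 CPM in ND heads. Its groups did not overlap either, and its log2 fold change was 0.28, standard error 0.13 (unadjusted p = 0.0568 in edgeR's test). ATPsynbeta (Dmel_CG11154), the subunit that holds the catalytic sites, had 1923, 1507 and 1594 CPM in HSD-F1 heads, against 1669, 1488 and 1296 CPM in ND heads. ATPsyngamma (Dmel_CG7610), the shaft that turns within the head, had 420.1, 310.3 and 352 CPM in HSD-F1 heads, against 327, 309.7 and 254 CPM in ND heads. For both, HSD-F1 replicate 1 was the highest library and HSD-F1 replicate 2 fell within the ND range. HSD-F1 replicate 3 fell within it for ATPsynbeta and above it for ATPsyngamma. ATPsyndelta (Dmel_CG2968), of the central stalk, had the lowest level of the complex and 278, 412 and 457 CPM in HSD-F1 heads, against 425, 396 and 335 CPM in ND heads. HSD-F1 replicate 1 was its lowest library, and its log2 fold change was -0.01 (standard error 0.18). Of the remaining 5 members, all in the stator or the membrane part, ATPsynO, ATPsynB, ATPsynF, ATPsynCF6 and ATPsynG had log2 fold changes of 0.11 to 0.23 and overlapped between the groups.

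Over all complexes, the groups did not overlap for 6 of the 36 genes, with HSD-F1 higher in each (ND-20, SdhC, COX5A, COX6B, blw and ATPsynD), where 6.67% of all genes tested did not overlap with HSD-F1 higher. For 0 of the 36 genes was every HSD-F1 library below every ND library, against 5.17% of all genes. When 1 library was left out in turn, the unadjusted p in edgeR's test stayed under 0.05 in 3 of 6 fits for COX5A, in 2 for ND-20, and in 1 each for SdhC and COX6B. COX5A missed the threshold without HSD-F1 replicate 1, HSD-F1 replicate 3 or ND replicate 3, with p of at most 0.0695. ND-20 passed only without HSD-F1 replicate 2 or ND replicate 1, and SdhC and COX6B only without HSD-F1 replicate 2. The highest p over the 6 fits was 0.135 for ND-20, 0.19 for SdhC and 0.114 for COX6B.

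**Figure D4:**
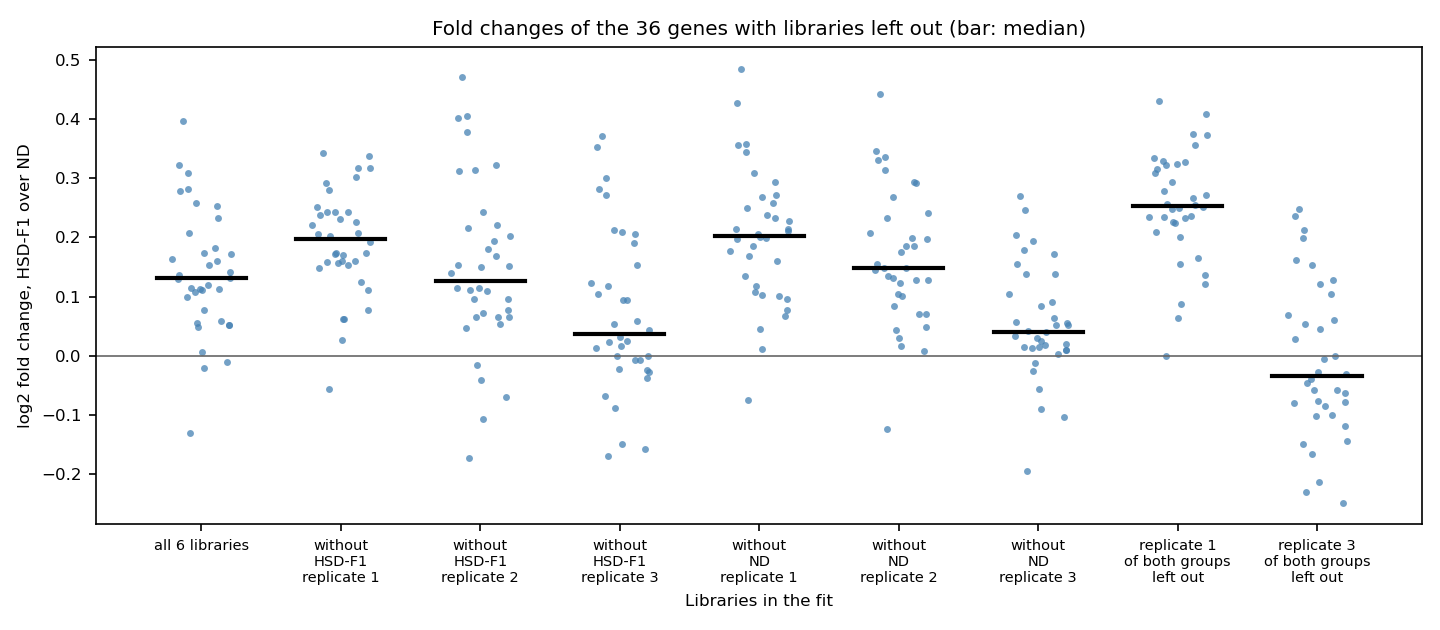
Log2 fold change of the 36 genes (points) in HSD-F1 over ND heads with all 6 libraries, without each library in turn, and without replicate 1 or replicate 3 of both groups, with a bar at the median. The median is 0.13 with all libraries, 0.04 without replicate 3 of either group, 0.25 without replicate 1 of both groups and -0.03 without replicate 3 of both groups.

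HSD-F1 replicate 1 spread the members widely. Of the 36 genes, 25 lay below the mean of the other 5 libraries and 11 above it, with a median of -0.07 on the log2 scale. Set against the mean of the other 5 libraries, the 36 genes had a standard deviation of 0.271 on the log2 scale in this library and of 0.065 to 0.131 in each of the other 5. They ran from -0.57 for SdhD to 0.46 for Cyt-c-p. On the low side were ATPsyndelta (-0.53), COX5B (-0.50) and cype (-0.48), and on the high side ATPsyngamma (0.44), COX5A (0.37), ATPsynbeta (0.35) and COX6B (0.34). Subunits of 1 enzyme thus went both ways within this library, with COX5A and COX6B above and COX5B and cype below in complex IV. Over 1798 other genes with at least 1946 counts in every library, the standard deviation was 0.274 in HSD-F1 replicate 1, close to the 0.255 of HSD-F1 replicate 3, and 0.141 to 0.192 in the other 4. Of the 4 members with an unadjusted p under 0.05, 4 were on the high side in HSD-F1 replicate 1. Without HSD-F1 replicate 1, 0 of these 4 stayed under 0.05 in edgeR's test, with log2 fold changes of 0.34 for COX5A, 0.24 for ND-20, 0.23 for SdhC and 0.24 for COX6B. In that fit 5 others were under 0.05 (SdhB, RFeSP, COX5B, cype and ATPsynG), and 35 of 36 members were higher in HSD-F1 heads. Of all genes tested in the same fit, 6.47% were under 0.05 in either direction. All 4 calls were also lost without HSD-F1 replicate 3 and without ND replicate 3.

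In HSD-F1 replicate 3 short members tended to stand higher. Its deviation from the other 5 libraries correlated with the log2 exonic length of the gene at Pearson's r = -0.69 over the 36 genes, which share 1 library and are not independent. In ND replicate 3 the correlation was 0.45, so short members tended to stand lower there. The remaining libraries had values of -0.11 to 0.19. In HSD-F1 replicate 3 COX8, whose exons cover 513 bases, was 0.52 above the other 5 on the log2 scale. ND-75, whose exons cover 2634 bases, was at -0.05 in that library. The longest member, ATPsyndelta, went against this order in HSD-F1 replicate 3, at 0.32 with 3817 bases. Exonic lengths of the members ranged from 513 to 3817 bases, with 18 of 36 under 1000. The part of gene length in the fold changes was not tested.

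The members varied together over the 6 libraries. Over the 630 pairs of members the median Pearson correlation of log2 CPM was 0.72, with quartiles of 0.45 and 0.89, and 33 pairs were below 0. All pairs share the same 6 libraries, ND replicate 3 among them, and pairs of other genes were not compared. The genes of the whole table most like ATPsynC over the 6 libraries were awd, CG18547, CG7943, CG42813 and GstE11, with correlations of 0.983 to 0.993 and log2 fold changes of 0.07 to 0.20.

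Other nuclear genes of the pathway are described by lists, without a test. At an unadjusted p under 0.05 in edgeR's test, 2.91% of all genes tested were higher in HSD-F1 heads and 2.16% were lower. The counts of genes under that threshold in each list stand beside these shares. Of 34 further subunits, mostly small accessory subunits of complex I, 32 were tested, 27 were above 0 and 5 below, and the median log2 fold change was 0.06. This median was -0.07 without HSD-F1 replicate 3, -0.02 without ND replicate 3 and 0.22 without HSD-F1 replicate 1. In this list 2 genes had an unadjusted p under 0.05 in edgeR's test, both higher in HSD-F1 heads: ND-B18 of complex I at 0.32 and ATPsynE of ATP synthase at 0.42. The median deviation of the 32 genes was -0.33, 0.10 and 0.29 in HSD-F1 replicates 1, 2 and 3, and 0.09, 0.03 and -0.20 in ND replicates 1, 2 and 3, so that ND replicate 3 was again the lowest ND library and HSD-F1 replicate 3 the highest of the 6, while HSD-F1 replicate 1 was lower still. Proteins of the mitochondrial ribosome, which translates the subunits of the mitochondrial genome, had 60 of 72 genes above 0, against 49.4% of all genes. Their median of 0.13 was 0.07 without HSD-F1 replicate 3, also 0.07 without ND replicate 3 and 0.17 without HSD-F1 replicate 1. Of the 72 genes, 6 had an unadjusted p under 0.05, all higher, against 2.91% of all genes, with mRpS35 at 0.36. Assembly factors had 7 of 11 above 0 and a median of 0.14. That median was 0.07 without HSD-F1 replicate 3, 0.04 without ND replicate 3 and 0.15 without HSD-F1 replicate 1. Among these factors were Sirup, which helps to assemble complex II, at 0.30 and Cox11, a copper chaperone of complex IV, at 0.36, both with an unadjusted p under 0.05. TCA cycle enzymes had 4 of 11 above 0, a median of -0.02 and 0 genes with an unadjusted p under 0.05. Their median was -0.05 without HSD-F1 replicate 3, -0.07 without ND replicate 3 and 0.06 without HSD-F1 replicate 1. Among 6 carriers of the mitochondrial membranes tested, 4 were above 0 with a median of 0.11. This was 0.08 without HSD-F1 replicate 3, 0.05 without ND replicate 3 and 0.13 without HSD-F1 replicate 1. Bmcp, an uncoupling-type carrier, was lower at -0.38 with an unadjusted p under 0.05. The ADP/ATP carrier sesB was at 0.18 and the phosphate carrier Mpcp2 at 0.12. Regulators and factors of the mitochondrial DNA had 7 of 10 above 0 and a median of 0.03, which lay between 0.02 and 0.08 with any of these 3 libraries left out, with PolG1, the catalytic subunit of the mitochondrial DNA polymerase, at 0.42 and the 1 gene with an unadjusted p under 0.05. After adjustment over all genes tested, edgeR called 0 genes of these 6 lists.

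Further copies of these subunits had few reads. Many subunits have another nuclear gene, named as a like copy or, for cytochrome c, Cyt-c-d, which is known for its role in the male germline. Of 23 such entries, 22 were in the count tables, and 13 of these never had more than 3 counts in a library. All copies together held 354 counts over the 6 libraries, with at most 16 in a library, whereas the 36 members held 2373043 counts, and each member at least 1946 in every library. The tables hold uniquely mapped reads, and how reads that match both a member and a copy were treated is not given further.

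The RNA of the mitochondrial genome was seen only through its ribosomal and transfer RNA genes. The large ribosomal RNA had 60535, 46436 and 52027 CPM over HSD-F1 libraries and 50982, 43121 and 43370 CPM over ND libraries, with a log2 fold change of 0.21, a standard error of 0.13 and an adjusted p of 0.917 in edgeR's test. HSD-F1 replicate 1 was its highest library, and the groups overlapped. The small ribosomal RNA stood at 0.18. The libraries were made from poly(A)-selected RNA, so these CPM values do not give the amount of ribosomal RNA in the heads.

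The use of strand in counting is not given in the sources used here. Exons of 13 members overlap exons of another gene. ATPsyndelta overlaps CG2962 on the opposite strand over 35.6% of its exonic bases, and CG2962 had 0 counts. SdhD, RFeSP and SdhB share 13.9%, 13.2% and 10.6% of their bases with genes on the opposite strand that had fewer counts. ND-20, SdhC, COX5A and ATPsynD overlap no other exon.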

How the data were processed

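Poly(A)-selected head RNA was sequenced in 6 libraries (HSD-F1 3, ND 3) with paired-end reads. From uniquely mapped reads the authors deposited, for each library, the raw read count of 17545 genes, neither normalized nor pooled. The submitters' processing notes name HISAT2 2.0.4, Bowtie2 2.2.5, RSEM 1.2.12 and DESeq2 1.4.5, without saying which made the counts. The study describes its expression values as FPKM, and the count tables were used here. The 36 members were found by locus tag, and RefSeq's gene table of Release 6 gave 36 of 36 a symbol and the same span as the count tables.

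The 12048 genes whose counts summed to 10 or more were tested. Counts were scaled by TMM and tested with glmQLFit and glmQLFTest (edgeR 4.0.16, R 4.3.3), with group as the only term and Benjamini-Hochberg adjustment over all genes tested. The 95% interval and standard error come from this fit. Log2 CPM used a prior count of 2. Levels between genes are CPM per kb of the exonic length in the deposited tables. Calls were read at an unadjusted p under 0.05, the same with a 1.5-fold change, and an adjusted p under 0.05. For single genes an exact permutation test (two-sided) was added. The alternatives were RLE normalization, other filters, DESeq2 1.42.0, limma-voom (limma 3.58.1), a replicate block and leaving out each library. The edgeR model, and not the alternatives, was also run on simulated counts, with no outcome given here. Plots were drawn in matplotlib 3.10.9 (Python 3.11.15).

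Every member could be named. Values of all libraries were given for members with an unadjusted p under 0.05, the most and least abundant and the 2 with the largest change of each complex, and those whose groups did not overlap, with a few others chosen after their values were seen. Of the further lists, genes with an unadjusted p under 0.05 and the 2 most abundant could be named. The rule for the members uses no measured value, but the members and lists were chosen with earlier results of these data known. No sequences are shown.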

Additional observations from a re-analysis of the deposited data

How the results depend on the processing

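The median log2 fold change of the members (0.13) stayed between 0.12 and 0.13 under RLE normalization, both other filters, DESeq2, limma-voom and the replicate block. The number of members at an unadjusted p under 0.05 was 4 in edgeR's test and 3 to 5 under these settings, and 0 after adjustment in every setting tried. With RLE normalization, the other filters, DESeq2, limma-voom and the block, 3.98% to 5.52% of all genes tested passed unadjusted. When a 1.5-fold change was also required, the members called were 0 and the genes called 218 in place of 611. The correlation of same-numbered deviations over all genes was 0.25, 0.01 and 0.28 for replicates 1, 2 and 3. These values do not settle whether the replicate numbers pair the samples, and the main fit used no replicate block. With a replicate block 5 members passed (Cyt-c-p and ATPsynD in, SdhC out), against 5.52% of all genes tested. In that fit 38 genes had an adjusted p under 0.05, against 28 with DESeq2 and 8 with edgeR. ND-75, at 0.01, was at -6.56e-05 with RLE normalization and at -2.35e-05 with DESeq2.

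Leaving out 1 library in turn gave 0 to 6 members at an unadjusted p under 0.05 (0 without HSD-F1 replicate 3 or ND replicate 3, 1 without ND replicate 2), 25 to 35 members higher in HSD-F1 heads, and a median of 0.04 to 0.20. By the same threshold 3.60% to 6.80% of all genes tested passed in these fits. Of the log2 fold changes of the members, 12 changed sign in at least 1 of these fits. They ranged from -0.056 to 0.046 for ND-75, from -0.023 to 0.097 for ND-42, from -0.037 to 0.11 for ND-51, from -0.088 to 0.17 for ND-24, from -0.0066 to 0.12 for ND-23, from -0.15 to 0.17 for SdhD, from -0.016 to 0.16 for Cyt-c1, from -0.068 to 0.29 for COX5B, from -0.0077 to 0.30 for levy, from -0.022 to 0.23 for COX7A, from -0.027 to 0.32 for COX8 and from -0.16 to 0.17 for ATPsyndelta.

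In the settings chosen after the data were seen, dropping replicate 3 of both groups gave 0 members at an unadjusted p under 0.05 in edgeR, 14 members higher and a median of -0.035. In that fit 4.06% of all genes tested passed unadjusted. There 19 members changed sign: ND-75 (-0.028), ND-42 (-0.062), ND-51 (-0.077), ND-24 (-0.17), ND-23 (-0.058), UQCR-C1 (-0.046), UQCR-C2 (-3.28e-04), Cyt-c1 (-0.058), COX4 (-0.040), COX5B (-0.15), levy (-0.10), COX7A (-0.10), COX8 (-0.14), cype (-0.12), ATPsynO (-0.030), ATPsynB (-0.077), ATPsynF (-0.079), ATPsynCF6 (-0.084) and ATPsynC (-0.0054). Dropping replicate 1 of both groups gave 8 members at that threshold, against 4.23% of all genes tested. In the same fit ND-49 (2.40e-04), SdhD (0.20) and ATPsyndelta (0.25) changed sign. The cause was not tested.

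With 3 libraries a group, the 95% interval of 5 members reached past a 1.5-fold higher level. Every member had at least 1946 counts in every library.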
